A study of Mus musculus with 2 samples.

Results

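Hormone-sensing luminal cells of the mouse mammary gland were described here from single cells of regenerating transplants. They were picked by a rule on measured counts of unique molecular identifiers (UMIs), each of which stands for 1 captured transcript end. Immune cells were dropped first. Cells were then kept if the basal keratins Krt14 and Krt5 gave at most 0.1 of the UMIs of 4 keratin genes, the others being the luminal keratins Krt8 and Krt18. A kept cell belonged to the group if its mean ln(1 + UMIs per 10000) over 6 hormone-sensing genes (Prlr, Areg, Cited1, Ly6d, Pgr and Esr1) exceeded that over 6 secretory genes (Wfdc18, Csn3, Plet1, Elf5, Kit and Aldh1a3). The rule found 63 of 354 cells.

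The Ctrl library gave 48 of its 268 cells and the Fgfr2 KO library gave 15 of its 86. In both, basal donor cells exposed to an adenovirus with Cre and GFP were combined with Cre-free wild-type luminal cells, and the mixture was placed in the cleared fat pads of weanling female nude mice and recovered several days later. The basal cells had intact Fgfr2 (labelled WT) in Ctrl and Fgfr2 deleted by Cre from a floxed allele (labelled Fgfr2 KO) in the other library, and all donor cells carried the R26R mTmG reporter, which makes Tdtomato before Cre and GFP after it. The study asked how basal cells without Fgfr2 affect the wild-type luminal cells around them, so that by design the luminal donor cells carried no deletion. It also reported that many basal cells without Fgfr2 turned luminal in similar transplants recovered later. Nude mice keep innate immune cells, and 121 of the 354 cells were dropped as immune although both libraries were labelled epithelial. With 1 library per group nothing could be tested between groups, no p-value is given, and all intervals cover counting error alone.

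In the mammary gland, hormone-sensing luminal cells carry the receptors for oestrogen, progesterone and prolactin and pass the hormonal signal on to their neighbours through secreted factors. Amphiregulin, a ligand of the epidermal growth factor receptor made under oestrogen, and Wnt4, made under progesterone, are the best known of these. Secretory luminal cells, the other main luminal type, lack most of these receptors and are the source of milk-producing cells.

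Promoters of 2 genes are shown because they stand for the kinds of evidence used below: Areg, the gene of the rule with the widest range between Ctrl cells, and Foxa1, a gene outside the rule that was at 0 UMIs in the secretory-profile cells. Each runs from 250 bases before to 50 bases after a transcription start (RefSeq, GRCm38.p6), Areg at chr5:91139349-91139648 on the plus strand and Foxa1 at chr12:57546062-57546361 on the minus strand. Capitals mark the cAMP response element TGACGTCA, which starts at position -61 from the Areg start.
Areg: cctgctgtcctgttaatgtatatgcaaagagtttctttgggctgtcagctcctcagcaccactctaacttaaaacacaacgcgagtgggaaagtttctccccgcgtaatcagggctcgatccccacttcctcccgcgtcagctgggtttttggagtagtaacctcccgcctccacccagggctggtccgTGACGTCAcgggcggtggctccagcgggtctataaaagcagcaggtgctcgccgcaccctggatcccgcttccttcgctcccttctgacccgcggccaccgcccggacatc
Foxa1: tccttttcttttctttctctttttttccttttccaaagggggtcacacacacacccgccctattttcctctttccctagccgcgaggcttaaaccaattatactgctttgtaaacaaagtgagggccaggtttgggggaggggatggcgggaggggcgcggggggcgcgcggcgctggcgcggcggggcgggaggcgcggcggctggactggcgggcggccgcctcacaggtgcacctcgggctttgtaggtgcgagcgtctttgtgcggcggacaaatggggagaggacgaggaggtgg
Of the 6 hormone-sensing genes of the rule and 18 further ones, 19 of 24 had promoters in the table, with 28 windows. This palindromic element occurred in 1 of the 28 windows, against 1.79% of all 32851 mouse windows of the same length. The AP-1 motif TGANTCA, searched on both strands, occurred in 3 windows of the genes Prlr and Prom1, against 7.81% of all windows. The oestrogen response element GGTCANNNTGACC occurred in 0 of the 28 windows and in 0.0700% of all windows. These matches describe the letters in the windows and nothing about binding.

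The cells of the group were deep. They held a median of 22323 UMIs in Ctrl (4258 to 74814) and 24964 in Fgfr2 KO (6219 to 83994), with medians of 4308.5 and 4686 detected genes. The share of mitochondrial UMIs had medians of 3.36% and 3.91%, and no cell of the group was called a doublet. The group made up 87.3% of the luminal cells in Ctrl (48 of 55, exact 95% interval 75.5 to 94.7%) and 83.3% in Fgfr2 KO (15 of 18, 58.6 to 96.4%), and the difference lay within these intervals. Of all epithelial cells by their keratins it was 29.1% (22.3 to 36.7%) and 39.5% (24.0 to 56.6%), with intervals that overlapped. The remaining luminal cells, called secretory-profile cells below, numbered only 7 in Ctrl and 3 in Fgfr2 KO. Cells in which Krt14 and Krt5 gave between 0.1 and 0.9 of the keratin UMIs, called mixed-keratin cells, numbered 97 and 13 and served as a further comparison in both libraries.

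The score difference that chose the cells ran from 0.041 to 1.52 in Ctrl with a median of 0.80, and from 0.038 to 1.74 in Fgfr2 KO with a median of 0.52. The nearest cell on the other side had a difference of 0.0 in Ctrl and -0.38 in Fgfr2 KO. Within 0.25 above the limit lay 7 of the 48 Ctrl cells and 3 of the 15 Fgfr2 KO cells. At least 3 of the 6 genes were detected in 44 of 48 and 10 of 15 cells, and all 6 in 5 and 1.

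**Figure D1:**
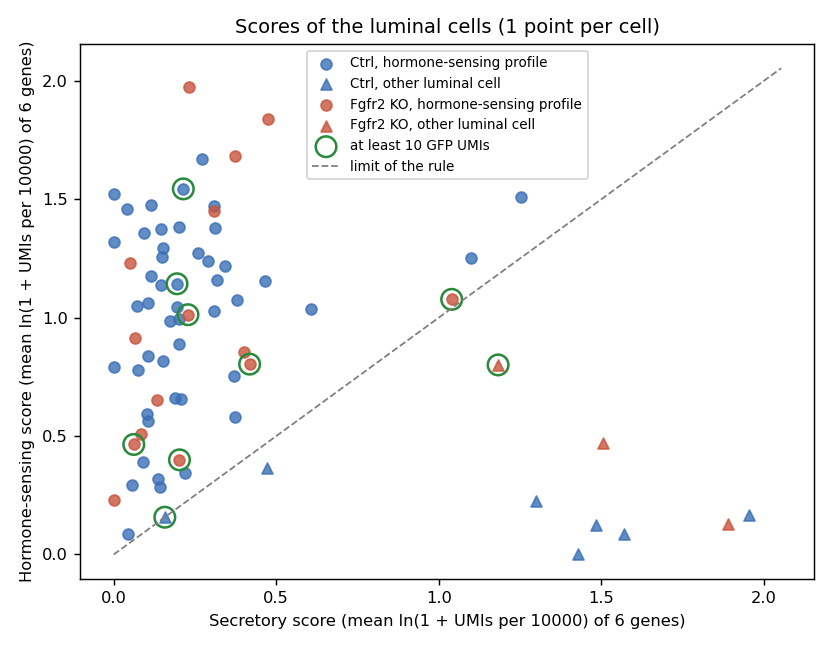
Scores of the luminal cells, with the secretory score on the x axis and the hormone-sensing score on the y axis, both as mean ln(1 + UMIs per 10000) over 6 genes, and 1 point per cell. Circles above the dashed line are the 48 Ctrl and 15 Fgfr2 KO cells of the group, triangles the 7 and 3 other luminal cells, and green rings mark cells with at least 10 GFP UMIs.

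The genes of the rule are given as a description, since they chose the cells. Among the receptors, Prlr, the prolactin receptor, had UMIs in 40 of 48 cells of Ctrl and 10 of 15 of Fgfr2 KO, with a median of 3.47 UMIs per 10000 in Ctrl and 1.80 in Fgfr2 KO and highest cells at 24.8 and 10.8. Pgr, the progesterone receptor, was seen in 23 and 5 cells, and Esr1, the oestrogen receptor, in 26 and 2. Summed over the cells, Esr1 lay at 39.0 counts per 1000000 UMIs (CPM) in Ctrl and 4.51 in Fgfr2 KO, where it rested on 2 UMIs. Esr1 or Pgr was detected in 38 of 48 cells of Ctrl and 6 of 15 of Fgfr2 KO, so that both of these receptors were below detection in most of the latter. Cells were also thinned to 8781 UMIs, and the 4 Ctrl and 2 Fgfr2 KO cells below that depth were left out. Then 10 of 44 cells of Ctrl (22.7%) still had an Esr1 UMI, against 0 of 13 in Fgfr2 KO, which allows up to 24.7% there.

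The secreted and surface products of the rule varied strongly between cells. Areg ran from 0 to 118 UMIs per 10000 in Ctrl with a median of 2.74, and from 0 to 29.0 with a median of 0.48 in Fgfr2 KO. It was detected in 38 of 48 and 8 of 15 cells. Cited1, a transcriptional coregulator of oestrogen receptor targets, had medians of 2.33 and 6.07 per 10000, and Ly6d, a surface protein, 2.14 and 5.23. The libraries overlapped for each of these genes, but the highest cells of Ctrl lay above those of Fgfr2 KO for Areg and for Cited1 (29.2 against 15.2), and below them for Ly6d (35.0 against 42.2). In immune cells, which were shallower (medians of 9961.5 and 5765 UMIs), Areg had a UMI in 32.5% of Ctrl and 12.2% of Fgfr2 KO cells and Prlr in 12 of 80 and 1 of 41. At 8781 UMIs per cell the shares for Areg were 72.7% and 46.2% in the group against 19.2% and 7.69% in immune cells, of which 28 in each library were too shallow and left out. Some immune cells are known to make Areg, so these shares are not read as its background.

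Ranks of the genes across cells are given for each library. Across the 48 Ctrl cells Areg had a Spearman rho of 0.68 with Krt19, 0.41 with Wnt4 and 0.35 with Prlr, but -0.44 with Ly6d. Across the 15 Fgfr2 KO cells the same values were 0.80, 0.74, 0.64 and 0.50. Areg and Foxa1 had a rho of 0.15 in Ctrl and -0.37 in Fgfr2 KO. These are descriptions over cells that share a library and differ in depth. Areg, Prlr and Ly6d also chose the cells through their mean, which by itself shapes how they rank against each other, so nothing is read from their values.

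**Figure D2:**
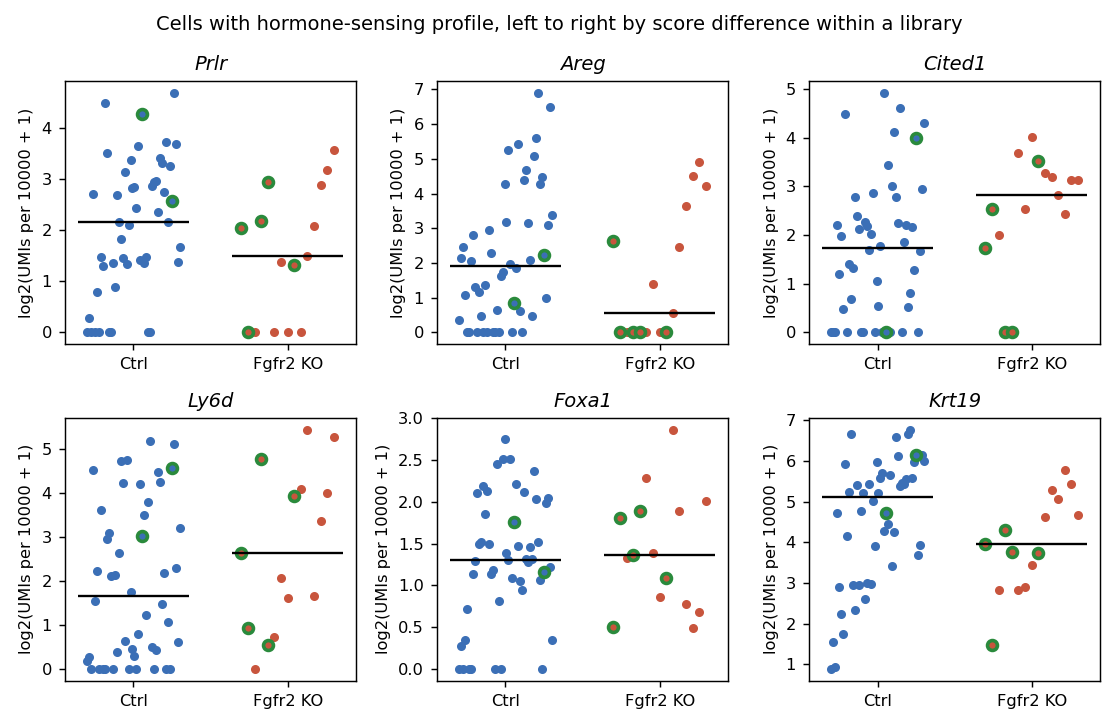
Levels per cell as log2(UMIs per 10000 + 1) of 4 genes of the rule and of Foxa1 and Krt19, with 48 Ctrl and 15 Fgfr2 KO cells ordered within a library by their score difference. Bars are medians and green rings mark cells with at least 10 GFP UMIs. Areg was detected in 38 Ctrl and 8 Fgfr2 KO cells, and Foxa1 in 41 and 15.

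Genes that the rule did not use were then read in the group to check its label. Of 18 other hormone-sensing genes, 11 had at least 20 UMIs for a comparison with the secretory-profile cells of Ctrl, and 9 of these were at least 2-fold higher in the group, against 17.9% of all genes compared. Xbp1 was the 1 gene at least 2-fold lower, against 6.96% of all genes. When cells were thinned to equal depth and shallower ones left out, 5 genes were left at least 2-fold higher. The median log2 ratio of the 11 genes was 2.58, with 4 of them at a lower bound, and the median of all genes was 0.15. Against the 3 secretory-profile cells of Fgfr2 KO fewer genes passed. There 4 of 9 were at least 2-fold higher (18.7% of all genes), 1 was lower (8.85% of all genes) and the median was 0.81, again with 4 at a lower bound. That count of 4 was 2 after thinning or with a stricter keratin limit of 0.05, and 7 with Ly6d left out of the score. Against mixed-keratin cells of Ctrl, 10 of 15 genes were at least 2-fold higher (6.82% of all genes) and 0 were lower (9.49% of all genes). In Fgfr2 KO 8 of 9 were higher (11.0% of all genes) and 0 lower (9.29% of all genes). The median log2 ratios were 1.45 and 2.48.

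Foxa1, the pioneer factor that opens chromatin for the oestrogen receptor (chr12:57540628-57546916, minus strand, GRCm38), had UMIs in 41 of 48 cells of Ctrl and 15 of 15 of Fgfr2 KO, at 167 CPM (206 UMIs) and 174 CPM (77 UMIs). In secretory-profile cells of either library it had 0 UMIs, so that the group was at least 8.76-fold higher in Ctrl, with the floor at 3 counts over the class. In mixed-keratin cells Foxa1 lay at 19.9 and 6.19 CPM. At equal depth it was left in 77.3% and 76.9% of the cells of the group and in 0 of 52 and 0 of 13 immune cells, which allows up to 6.85% and 24.7%.

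Other regulators followed less sharply. Gata3, a luminal lineage factor, lay at 180 CPM in Ctrl and 176 in Fgfr2 KO, with log2 ratios over mixed-keratin cells of 1.36 (1.07 to 1.65) and 1.07 (0.42 to 1.76). Tbx3, a T-box factor of hormone-sensing cells, lay at 38.2 and 96.9 CPM. Xbp1, a factor of the secretory pathway that responds to oestrogen, lay at 62.6 CPM in the group and 153 CPM in secretory-profile cells of Ctrl, a log2 ratio of -1.29 (-1.97 to -0.56).

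Among secreted and surface products, Wnt4 (chr4:137277489-137299726, plus strand) was detected in 35 of 48 cells of Ctrl and 6 of 15 of Fgfr2 KO, at 212 and 147 CPM. Its log2 ratios over mixed-keratin cells were 2.56 (2.22 to 2.92) and 2.98 (1.78 to 4.48). Wfdc2 (chr2:164562413-164568510, plus strand), a secreted whey-acidic-protein family member, was seen in 47 of 48 and 15 of 15 cells at 1632 and 1260 CPM, with ratios of 2.57 and 2.48. Prom1, a surface protein used to sort hormone-sensing cells, lay at 44.7 and 45.1 CPM and had 5 UMIs in mixed-keratin cells of Ctrl and 0 in those of Fgfr2 KO. Stc2, a secreted glycoprotein, lay at 154 and 142 CPM against 8.19 and 6.19 in mixed-keratin cells. These genes were thus higher in the group than in mixed-keratin cells of both libraries. Tph1, which makes serotonin, lay at 205 CPM in Ctrl, where 1 cell gave 63.9% of its UMIs, and at 13.5 in Fgfr2 KO.

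**Figure D3:**
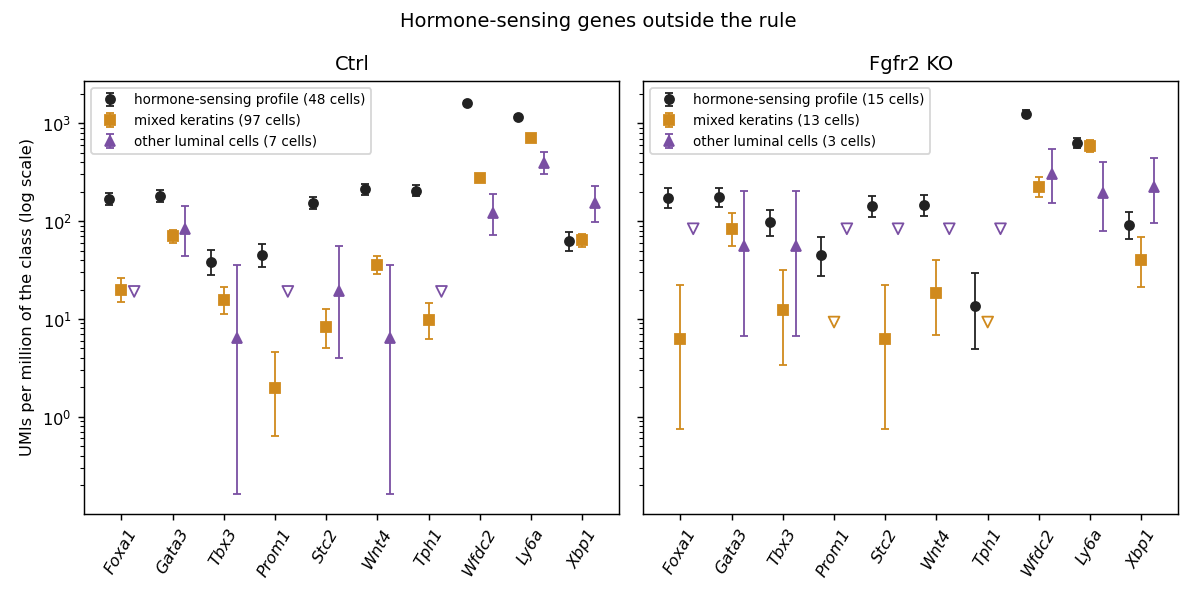
Summed levels, in CPM on a log axis, of 10 hormone-sensing genes outside the rule in cells of the group (circles), mixed-keratin cells (squares) and the other luminal cells (triangles), for Ctrl on the left and Fgfr2 KO on the right. Bars are exact Poisson 95% intervals and open triangles mark the limit that 0 UMIs allows. Foxa1 lay at 167 and 174 CPM in the group and at 0 UMIs in the other luminal cells.

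Genes of the secretory programme outside the rule ran the other way. Of 16, 9 could be compared with secretory-profile cells in Ctrl, of which 6 were at least 2-fold lower in the group (6.96% of all genes) and 0 higher (17.9%), with a median log2 ratio of -2.06. Lcn2, an iron-binding defence protein, lay at 87.8 CPM against 3461, and Trf, the iron carrier of milk, at 13.0 against 1052. Against mixed-keratin cells of Ctrl 6 of 10 were lower (9.49% of all genes) and 1, Cd14, was higher (1.26). Basal genes lay between those of the neighbouring classes in Ctrl. All 10 basal genes were at least 2-fold lower than in mixed-keratin cells of Ctrl (9.49% of all genes), with a median of -3.17. All 7 that could be compared were lower in Fgfr2 KO (9.29% of all genes). The basal keratins Krt14 and Krt5 split these classes, so lower basal genes were largely built in. Against secretory-profile cells of Ctrl, however, all 3 basal genes that could be compared were at least 2-fold higher (17.9% of all genes), and the list summed to 626 CPM in the group and 210 in those cells, a log2 ratio of 1.57 (1.07 to 2.12). Of these basal UMIs 74.8% came from 7 of the 48 cells, described below as near the limit of the rule, and the other 41 lay at 194 CPM.

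The genes outside the rule whose intervals lay farthest above the secretory-profile cells in Ctrl included several secreted signals. Of the 15, 5 were also on the lists (Foxa1, Wfdc2, Dcn, Cldn4 and Sprr1a), as was Lcn2 among the 10 farthest below. Ptn, the growth factor pleiotrophin, lay at 1045 CPM in the group and 19.1 in secretory-profile cells. Il33, a nuclear alarmin, lay at 420 CPM (UMIs in 38 of 48 cells) against 0 UMIs, at least 22.0-fold higher. Wnt5a, a Wnt ligand, lay at 328 against 12.7 CPM, and Dcn, a matrix proteoglycan, at 502 against 6.37 CPM. Dcn is also 1 of 6 fibroblast markers. Of the others, Pdgfra had 0 UMIs in the group in both libraries, Lum had 6 in Ctrl, and Col1a1, Col1a2 and Col3a1 lay at 18.7, 21.1 and 23.6 CPM in Ctrl. Slc12a2, an ion cotransporter, lay at 490 against 6.37 CPM, and the tight junction gene Cldn4 at 1059 against 89.2.

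These 15 higher and 10 lower genes had been chosen in Ctrl, and the Fgfr2 KO library was not used for the choice. There all 15 were higher in the group than in the 3 secretory-profile cells, 14 with an interval that excluded equality, and all 15 were higher than in mixed-keratin cells. Il33, for example, lay at 261 CPM against 9.29 in mixed-keratin cells, and Ptn at 1370 against 133. For all genes the median log2 ratios were 0.07 and -0.002 in these comparisons, but the share with such an interval was not computed. Dcn had UMIs in only 5 of 15 Fgfr2 KO cells, with 71.6% of them in 1 cell. Of the 10 lower genes, led by Spp1, Igfbp5 and Lcn2, 9 were lower than in the secretory-profile cells of Fgfr2 KO and 8 were lower than in its mixed-keratin cells. Spp1, the matrix protein osteopontin, lay at 118 CPM in the Ctrl group and 7508 in secretory-profile cells, with 45.1% of the latter in 1 cell. The same named genes thus mostly kept their direction in the library not used for the choice, on few cells, and some of them were already counted with the lists.

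Genes that carry hormone signals in many cell types were read from a list of their own. Of 28 such genes, 27 were compared with mixed-keratin cells of Ctrl, of which 4 were at least 2-fold higher (6.82% of all genes) and 1 lower (9.49%). The higher ones were Stat5a (1.55, 0.89 to 2.21) and Stat5b (1.44, 0.13 to 2.79), which act below the prolactin receptor, the thyroid hormone receptor Thra (1.28) and the retinoic acid receptor Rara (1.13). The vitamin D receptor Vdr was lower (-1.48, -2.37 to -0.68). The median over the list was 0.13, against -0.02 over all genes. Against secretory-profile cells of Ctrl 4 of 21 were higher (17.9% of all genes) and 3 lower (6.96%), with a sum that differed by 0.64 (0.44 to 0.84). In Fgfr2 KO the sum ran the other way, by -0.63 (-0.96 to -0.29), with 1 of 8 higher (18.7%) and 2 lower (8.85%).

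Receptors and ligands that the study follows were read in the group next. Inhba (chr13:16011851-16031621, plus strand), which encodes a subunit of activin, had UMIs in 27 of 48 cells of Ctrl and 6 of 15 of Fgfr2 KO, at 115 and 49.6 CPM. Over secretory-profile cells of Ctrl its log2 ratio was 1.36 (0.28 to 2.70), against 7 UMIs in 1 cell that lay near the limit of the rule. It was at least 1.83 when cells of either class within 0.25 of the limit were left out, and 0.15 when Areg was left out of the rule. Over mixed-keratin cells it was 0.34 (0.02 to 0.64) in Ctrl and 0.30 (-0.75 to 1.41) in Fgfr2 KO. The comparison with secretory-profile cells thus turned on few cells near the limit. Bmp7, the basal ligand of the study, had 2 and 7 UMIs in the group, and its receptor gene Bmpr1a lay at 51.2 and 27.0 CPM. Erbb3, a receptor that pairs with other members of its family, was higher in the group than in mixed-keratin cells of Ctrl (1.97, 1.26 to 2.72).

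Fgfr2 itself was a gene of the group. It had UMIs in 32 of 48 cells of Ctrl and 12 of 15 of Fgfr2 KO, at 74.8 and 104 CPM, and its log2 ratio over mixed-keratin cells was 1.80 (1.31 to 2.31) in Ctrl and 2.74 (1.42 to 4.43) in Fgfr2 KO. In Fgfr2 KO 1 cell gave 45.7% of the UMIs. Because the luminal donor cells were wild type and transcript ends can lie outside a deleted part, these values do not check the deletion.

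The reporter set some of these cells apart. At least 10 GFP UMIs (GFP-high cells) were found in 2 of 48 Ctrl cells (4.17%, 0.51 to 14.3%), with 24 and 96 UMIs, and in 5 of 15 Fgfr2 KO cells (33.3%, 11.8 to 61.6%), with 29 to 200. Such cells were also found in the classes most like the group. In Fgfr2 KO these were 1 of 3 secretory-profile and 2 of 13 mixed-keratin cells, and in Ctrl 1 of 7 and 1 of 97. The 1 of 7 held 276 GFP UMIs, was called a doublet and had a score difference of 0.0. Among cells that were basal by their keratins, Ctrl had 1 of 13 and Fgfr2 KO 0 of 7, and among immune cells 0 of 80 and 0 of 41 reached the minimum. By design GFP marked cells that had met Cre, whereas the wild-type luminal cells were to keep Tdtomato. Tdtomato had 45 UMIs over 30 of the other 46 Ctrl cells and 0 in the 2 GFP-high ones. In Fgfr2 KO it had 4 UMIs in GFP-high and 5 in the other cells.

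In Fgfr2 KO the 5 GFP-high cells and the other 10 differed in several genes of the programme. Foxa1 was detected in all 5 and all 10, at 163 (109 to 234) and 181 (133 to 240) CPM. Areg was detected in 1 of 5 against 7 of 10, at 140 (90.7 to 207) against 1111 (988 to 1246) CPM. Krt19, a luminal keratin, lay at 1060 against 2821 CPM and Wnt4 at 67.3 (34.8 to 118) against 200 (149 to 261) CPM. Fgfr2 had exactly 1 UMI in each of the 5 GFP-high cells, 28.0 CPM (9.11 to 65.4), and lay at 154 CPM (111 to 209.5) in the others, where 21 of 41 UMIs came from 1 cell. The summed levels of Areg, Krt19 and Wnt4 were thus lower in the GFP-high cells beyond counting error, while that of Foxa1 was not. Few of the other cells carried that difference. Wnt4 was detected in 2 of 5 GFP-high and 4 of 10 other cells. The 4 of the 10 with the largest score difference, a score that includes Areg, held 288 of their 295 Areg UMIs and all 53 Wnt4 UMIs, and the remaining 6 had 0 to 5 Areg UMIs each and 0 for Wnt4. These are 5 cells of 1 library, and the minimum of 10 UMIs had been set with these data in view.

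Cells just above the limit of the rule stood apart in Ctrl. There, the 7 cells with a score difference of at most 0.25 held a median of 25548 UMIs, so they were not shallow. They gave 89.0% of the Vim UMIs of all 48 cells (806 UMIs), at 3490 CPM against 100 in the other 41. Vim encodes the intermediate filament vimentin of mesenchymal and basal cells. For Tagln and Acta2, contractile genes of basal cells, the values were 1004 against 12 and 948 against 58.1 CPM, and for Lgals1 7002 against 384. The list of 10 basal genes lay at 2494 against 194 CPM.

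The same 7 cells had less of the hormone-sensing programme. Their choice by a small score difference favours this in advance, so it is given as a description. The list of 18 other hormone-sensing genes lay at 1593 CPM against 4469 in the other 41. Gata3 and Wfdc2 were detected in 7 of 7, at 73.6 against 205 and 775 against 1830 CPM. Foxa1 lay at 13.0 CPM (3 UMIs) against 203 in the other 41, and Wnt4 at 21.7 against 256. Outside that list, Il33 lay at 30.3 against 510 and Krt19 at 563 against 4298. Krt8, a luminal keratin that the rule used, lay at 3533 against 3763 CPM, but 1 of the 7 cells gave 470 of their 816 Krt8 UMIs. Another of the 7 gave 92 of their 130 Krt19 and 4 of their 5 Wnt4 UMIs, with 20 UMIs for Prlr and 80 for Ly6d, so the 7 were not alike. These 7 cells met the rule, but their Foxa1 level was close to that of mixed-keratin cells (19.9 CPM), and they are therefore called here by the rule. The 3 such cells of Fgfr2 KO were unlike them in Vim (5 UMIs, 45.3 CPM), in the basal list (99.6 CPM) and in Foxa1 (154 CPM). They were like them in other genes. The list of 18 lay at 1530 CPM against 3285 in the other 12 Fgfr2 KO cells. Il33 lay at 9.05 against 345 and Krt19 at 760 against 2562, while Gata3 lay at 154 against 183. This split was examined after the values were seen, with the margin of 0.25 that had been planned as an alternative.

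**Figure D4:**
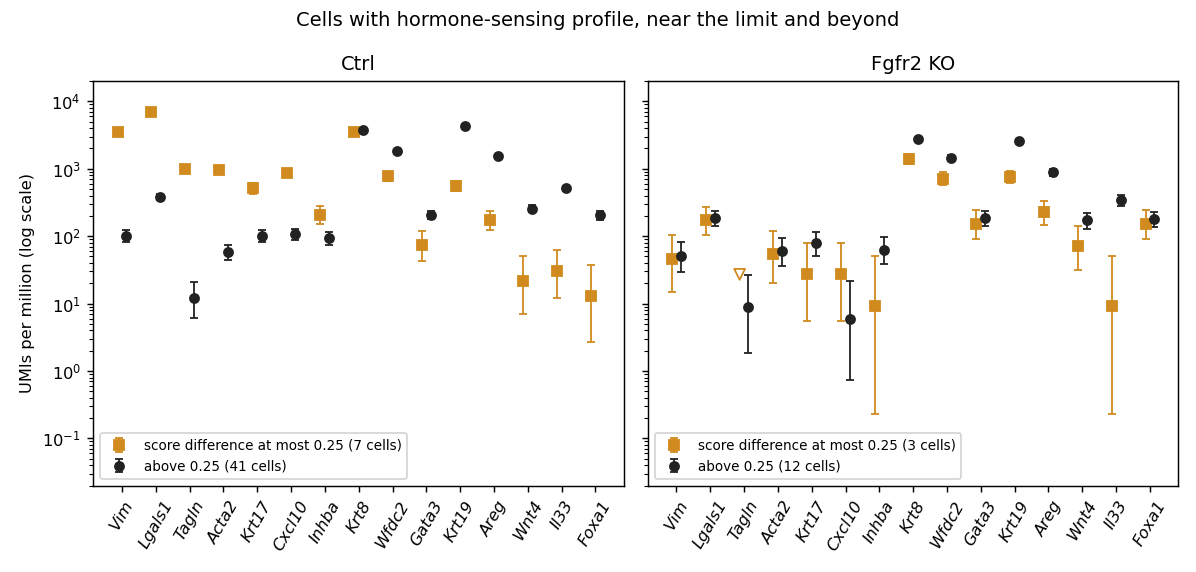
Summed levels, in CPM on a log axis, of 15 genes in cells whose score difference was at most 0.25 (squares) and in the remaining cells of the group (circles), for Ctrl on the left and Fgfr2 KO on the right. Bars are exact Poisson 95% intervals and the open triangle marks the limit that 0 UMIs allows. In Ctrl Vim lay at 3490 against 100 CPM and Foxa1 at 13.0 against 203.

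Cells of the group were then compared between the libraries, whose basal donor cells had or lacked Fgfr2. Of the 15 Fgfr2 KO cells 5 were GFP-high, so not all can be taken as wild-type luminal neighbours, and their origin was not tested. Of 7029 genes with at least 20 UMIs, 303 were at least 2-fold higher in Fgfr2 KO (4.31%) and 607 at least 2-fold lower (8.64%), with a median log2 ratio of -0.04. Without the GFP-high cells 321 were at least 2-fold higher and 736 lower, of 6580. Of the other hormone-sensing genes, 2 of 12 were higher, Tbx3 (1.34, 0.71 to 1.97) and Spdef (1.38, 0.30 to 2.46), and 1, Tph1, was lower. Spdef did not hold its place, with 0.96 (-0.28 to 2.13) without the cells near the limit and 0.41 (-1.38 to 1.91) without the GFP-high cells, while Tbx3 had 1.36 and 1.46. The median was -0.08. Foxa1 had a ratio of 0.05 (-0.35 to 0.44) and Gata3 of -0.04 (-0.43 to 0.34), both with intervals inside 2-fold either way. The summed list lay lower in Fgfr2 KO by -0.46 (-0.55 to -0.37), to which Ly6a, a surface antigen induced by interferon, contributed most (1162 CPM in Ctrl, 629 in Fgfr2 KO).

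Luminal epithelial genes lay somewhat lower in Fgfr2 KO. All 8 had a ratio below 0, of which Krt7 passed 2-fold (-1.04, against 8.64% of all genes lower), and their sum differed by -0.65 (-0.72 to -0.58). Krt19 lay at 3596 CPM in Ctrl and 2114 in Fgfr2 KO. Without the GFP-high cells the sum differed by -0.33 (-0.41 to -0.25), that of Krt19 by -0.34 (-0.45 to -0.22) in place of -0.77 and that of Areg by -0.22 in place of -0.81. Krt7 then lay under 2-fold, at -0.71 (-0.99 to -0.44). For Wnt4 the ratio was -0.53 (-0.95 to -0.14) with them and -0.04 (-0.49 to 0.40) without. As given above, the Areg and Wnt4 levels that remained came almost wholly from 4 cells.

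Interferon-induced genes, the answer of cells to interferon and a part of antigen presentation, were lower in Fgfr2 KO as a group. Of 20 genes compared all 20 had a ratio below 0 and 11 were at least 2-fold lower (8.64% of all genes). Their summed level was 7697 CPM in Ctrl and 3777 in Fgfr2 KO, a log2 difference of -1.03 (-1.10 to -0.95). By cell the list took a median of 0.738% of the UMIs in Ctrl (0.14 to 1.81%) and 0.349% in Fgfr2 KO (0.094 to 1.10%), and the libraries overlapped. Cxcl10, a chemokine, lay at 248 and 11.3 CPM. Gbp2, a guanylate-binding protein, lay at 287 and 65.3 CPM, the peptide transporter Tap1 at 128 and 38.3, and B2m, the light chain of class I molecules, at 4237 and 2368. The difference was -1.02 without the cells near the limit and -1.30 without the GFP-high cells.

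The same list was also lower in mixed-keratin cells of Fgfr2 KO, by -0.66 (-0.73 to -0.60), so it was not particular to the group. Immune markers moved with it. The 9 immune markers summed to 346 CPM in the group in Ctrl and 108 in Fgfr2 KO, most of it Lyz2 (256 and 78.9 CPM), with Cd3e at 0 UMIs in both and Ptprc at 2 UMIs and 1. Of these markers, 2 could be compared and both were lower. The 6 fibroblast markers moved the same way, with 570 CPM in Ctrl and 174 in Fgfr2 KO, most of it Dcn (502 and 167 CPM), and Pdgfra at 0 UMIs in both. All 4 that could be compared were at least 2-fold lower (8.64% of all genes), 3 of them collagens with 1 UMI each in Fgfr2 KO. Without the cells near the limit the fibroblast sum differed by -1.63, with an interval below 0, and the immune sum by -1.61 (-2.13 to -1.12). Dcn was also detected in 38 of 97 mixed-keratin cells of Ctrl and 1 of 13 of Fgfr2 KO, so its lower detection was not particular to the group. The part of either list in the result was not tested. Tnf, a cytokine, was also lower (-2.26, -3.16 to -1.48), at 151 and 31.5 CPM.

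Cell cycle genes lay slightly higher in Fgfr2 KO as a sum but not in most cells. Of 29 genes 4 were at least 2-fold higher (Aurkb, Mcm5, Tpx2 and Tyms, against 4.31% of all genes) and 1, Cenpf, was lower (8.64%), and the sum differed by 0.27 (0.20 to 0.35). By cell the list took a median of 0.196% of UMIs in Ctrl and 0.146% in Fgfr2 KO, with highest cells at 1.22% and 1.36%. The sum differed by 0.20 (0.11 to 0.30) without the cells near the limit and by 0.34 (0.25 to 0.43) without the GFP-high cells. Thinned to equal depth, however, it differed by -0.20, and with a stricter keratin limit by -0.02. No direction is therefore given for the cell cycle. Mki67, the proliferation marker, had UMIs in 11 of 48 and 4 of 15 cells.

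Stress-induced genes differed in a few members. Of 14 genes 3 were at least 2-fold higher in Fgfr2 KO (4.31% of all genes), the heat shock genes Hspa1a (2.55, 2.18 to 2.93) and Hspa1b (2.56, 2.09 to 3.05) and the immediate early gene Nr4a1 (1.57, 1.18 to 1.97). Hspa1a had UMIs in 15 of 15 Fgfr2 KO cells and 22 of 48 Ctrl cells, and its ratio was 1.86 (1.39 to 2.32) without the GFP-high cells. The list sum differed by 0.17 (0.11 to 0.22) in the group and by 0.76 (0.70 to 0.81) in mixed-keratin cells. Fos and Jun had ratios of 0.21 and 0.18.

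Other genes of the hormone response differed in few members. Of 24 genes 1 was at least 2-fold higher, Vdr (4.31% of all genes), and 4 were lower (8.64%), among them Sgk1, a kinase induced by corticosteroids (647 CPM in Ctrl, 248 in Fgfr2 KO, -1.38, -1.69 to -1.10, and -2.03 without the GFP-high cells). Nrip1, a corepressor of the oestrogen receptor, had a ratio of -0.89 (-1.29 to -0.51). Squamous genes did not move together. Of 6 compared 3 had a ratio above 0 and 3 below, with a median of -0.09, and 2 were at least 2-fold lower (8.64% of all genes), Krt16 (-1.31, -2.70 to -0.15) and Sprr1a, a cornified envelope protein (1295 and 448 CPM, -1.53, -1.75 to -1.32). The lower sum of the list (-0.95, -1.12 to -0.79) rested mostly on Sprr1a, which gave 1593 of its 2008 Ctrl UMIs. Sprr1a was also detected in 54 of 97 mixed-keratin cells of Ctrl and 1 of 13 of Fgfr2 KO. In immune cells, shallower in Fgfr2 KO, it was detected in 24 of 80 and 1 of 41. Its lower detection was thus not particular to the group. Of 8 secretory genes 3 were at least 2-fold higher (4.31% of all genes), Trf (2.83, 1.96 to 3.76), the casein Csn1s1 (117 against 29.3 CPM) and Lcn2 (1.55), with 56.1%, 92.3% and 73.7% of their Fgfr2 KO UMIs in 1 cell each. The genes Cd14 (-1.35) and Cxcl1 (-1.46) were lower (8.64%). The list summed to a difference of -0.12 (-0.28 to 0.04), but to -0.82 (-1.07 to -0.58) without the cells near the limit and -1.49 (-1.80 to -1.19) without the GFP-high cells.

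The ligands and receptors of the study gave few differences. Of 10 compared 0 were at least 2-fold higher (4.31% of all genes) and 2, Tnf and Inhba, were lower (8.64%). Inhba had a ratio of -1.21 (-1.93 to -0.55), which rested in part on the 7 Ctrl cells near the limit. These gave 34.0% of the Ctrl Inhba UMIs, and without the cells near the limit the ratio was -0.56 (-1.32 to 0.13). Of 12 alternatives 7 left it under 2-fold. In mixed-keratin cells it was -1.17 (-2.11 to -0.37). Fgfr2 had a ratio of 0.47 over all cells of the group, with an interval that spanned 0, and 1.08 (0.50 to 1.63) without the GFP-high cells, with the 1 cell noted above still among them. Fgfr1, a related receptor, had a ratio of -0.14 (-0.63 to 0.32). Id2 and Id3, targets of bone morphogenetic proteins, had ratios of -0.50 (-0.94 to -0.09) and -0.81 (-1.27 to -0.37), and 0 of 3 such genes passed 2-fold.

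Of the 10 named genes that lay lowest in Fgfr2 KO, some rested on the cells near the limit. Vim lay at 737 CPM in Ctrl and 49.6 in Fgfr2 KO (-3.89, -4.57 to -3.29), but the ratio was -0.97 (-1.81 to -0.22) once these cells were left out of both libraries. Tagln went from -4.87 to -0.42 (-2.88 to 1.47), Lgals1 from -3.17 to -1.07 (-1.48 to -0.68), Acta2 from -1.94 to 0.05 (-0.76 to 0.80), and the basal list from -2.07 to -0.23 (-0.69 to 0.20). Igfbp4 was left with 12 UMIs in Ctrl and 0 in Fgfr2 KO. For the other 6 named genes the ratio moved by less than 1. Dmbt1 had -5.08 with and -4.96 without these cells, Cdkn2a -4.44 and -5.16, Gbp2b -3.63 and -3.43, Cxcl10 -4.46 and -4.16, Ubd -3.46 and -3.45, and Glul, glutamine synthetase, -2.85 and -2.84. The 7 Ctrl cells nevertheless gave 64.9% of the Ctrl Cxcl10 UMIs, at 857 CPM against 107 in the other 41. The lower Tagln and Acta2 in Fgfr2 KO thus rested on 7 cells and that of Vim and Lgals1 in part, with intervals still below 0 without them.

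Among the named genes highest in Fgfr2 KO, besides the stress genes given above, Krt15, a keratin, lay at 60.8 and 9.76 CPM, with 48.1% of its Fgfr2 KO UMIs in 1 cell. Rpl36-ps3, Gm7808 and Gm10269 were also named by the rule, but they are copies whose reads may belong to other genes. AY036118, a transcript that overlaps ribosomal RNA genes, lay at 669 and 185 CPM. The histone genes Hist1h2ak (2.79, 1.35 to 4.45) and Hist1h2ae (2.47, 1.24 to 3.81) rested on 15 and 18 UMIs in Fgfr2 KO. Without the cells near the limit 215 genes were at least 2-fold higher and 576 lower of 6307, with 86 genes within 0.002 of the limit on the log2 scale, so these counts are loose.

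**Figure D5:**
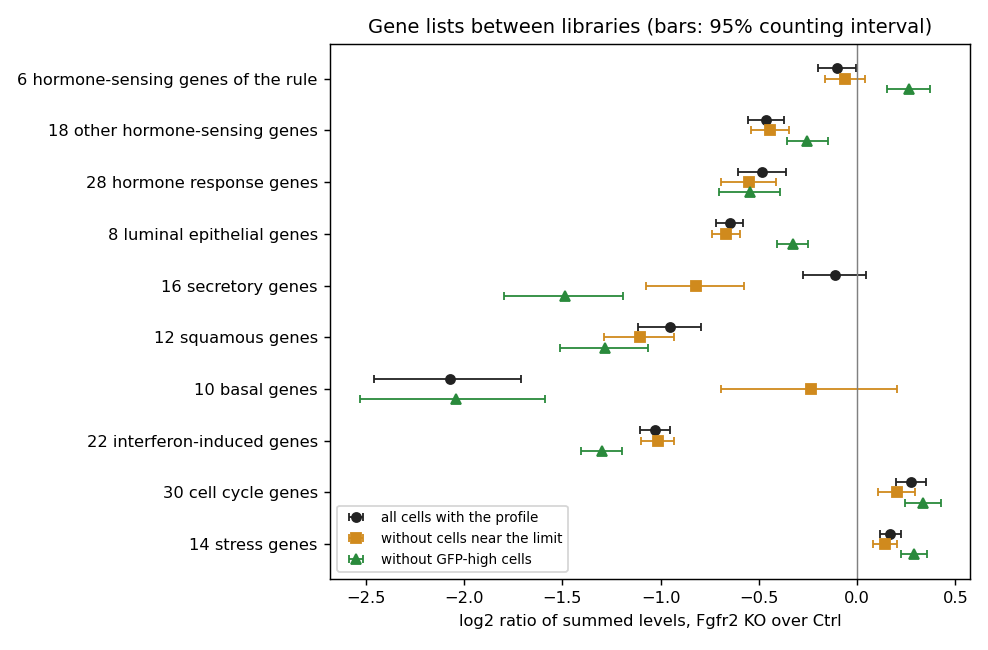
Log2 ratio of the summed level in Fgfr2 KO over Ctrl for 10 gene lists in the cells of the group, for all cells (circles), without cells near the limit (squares) and without cells of at least 10 GFP UMIs (triangles). Bars are exact 95% counting intervals. The interferon-induced list lay at -1.03, -1.02 and -1.30, and the basal list at -2.07, -0.23 and -2.04.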

How the data were processed

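Mammary transplants were profiled as 2 droplet libraries, 1 per group. As deposited, the table held unnormalised UMI counts, which the authors made with Cell Ranger (2.1.1 and mm10 per the submitters' processing notes) and joined by aggregation. Of 28000 features, 27998 were genes and 2 reporters. Libraries held 5458515 (Ctrl) and 1253032 (Fgfr2 KO) UMIs, with medians of 16301 and 10485 per cell. Every column was assigned by its prefix, and 0 barcodes were shared.

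The cells and gene lists were chosen with earlier results of these data known. Immune cells had Tyrobp, Fcer1g, Laptm5 and Coro1a at 5 or more per 10000 UMIs in sum. Epithelial cells had at least 10 keratin UMIs and 5 per 10000. UMIs were summed by class and divided by all UMIs of the class (CPM), with exact Poisson intervals. Ratios carry exact conditional binomial intervals, and shares carry Clopper-Pearson intervals, all at 95%. Genes needed 20 UMIs over both classes. A class at 0 was set to a floor of 3 counts over the class. Besides the lists, named genes, which may be on a list, were the 15 higher and 10 lower (between libraries 10 each way) with intervals farthest from 0, detected in at least 3 cells and with at most 50% of UMIs in 1 cell. In thinned comparisons, cells were reduced to 8781 UMIs. Doublets were kept (Scrublet called 3 and 2 cells). Intervals were tested on simulated counts with the same counting error that they assume. That test did not cover the clustering of UMIs in single cells. Positions are from GENCODE (GRCm38). Python 3.11.15, numpy 2.4.6, pandas 2.3.3, scipy 1.17.1 and scanpy 1.11.5 were used.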

Additional observations from a re-analysis of the deposited data

Results flagged for a closer look

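The reporter lay outside the comparisons of genes. In the Fgfr2 KO library 33.3% of the cells with hormone-sensing profile (5 of 15, 95% interval 11.8 to 61.6%) held at least 10 GFP UMIs, above the 4.17% (2 of 48, 0.51 to 14.3%) of the Ctrl library, which served as the control. The intervals overlap, and the difference was not tested because each group had 1 library.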

How the results depend on the processing

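Of 136 alternatives over the results, 112 moved a value by less than its counting interval or a count by at most 1.5 times, 22 moved it further and 2 reversed its sign. The 112 include changes for Inhba. Its ratio between libraries fell under 2-fold in 7 of 12 alternatives, and its interval reached 0 in 3 of them, at -0.56 (-1.32 to 0.13) without cells near the limit, -0.63 (-1.37 to 0.05) with the stricter keratin limit and -0.84 (-2.55 to 0.52) after thinning. The mean over cells, at -0.42, had no interval of its own and could not enter that count of 3. Its ratio over secretory-profile cells of Ctrl had only a lower bound, 0.46, with the stricter keratin limit, where the latter held 0 Inhba UMIs, and was 1.03 (-0.05 to 2.37) without the deepest cells and 1.70 (-0.87 to 7.05) after thinning. With a basal keratin share of at most 0.05 the group was 95.3% of Ctrl luminal cells, 2 independent hormone-sensing genes were higher in Fgfr2 KO and the cell cycle sum was -0.020. Thinning left 5 independent genes higher in Ctrl and 2 in Fgfr2 KO, 106 genes higher and 379 lower between libraries, a cell cycle sum of -0.20 and an interferon sum of -0.70. Without a minimum of UMIs 860 genes were higher and 1119 lower, and with at least 50 UMIs 65 and 265. Leaving Ly6d out of the score gave 7 independent genes in Fgfr2 KO and a cell cycle sum of 0.45, and leaving Areg out gave 0.40 and an Inhba ratio over secretory-profile cells of 0.15. Means over cells gave 0.50 for the cell cycle, -0.84 for interferon and -0.42 for Inhba between libraries. Without the deepest cells the cell cycle and interferon sums were 0.18 and -0.91, without Ptprc-positive cells interferon was -0.92, and without GFP-high cells, an alternative chosen after seeing the data, it was -1.30. The causes were not tested. In Fgfr2 KO the Inhba ratio over secretory-profile cells has no value, since these held 0 Inhba UMIs. No paired analysis was possible because each group had 1 library. With 15 cells in Fgfr2 KO and 3 secretory-profile cells, genes under about 20 UMIs could not be compared.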

Other observations

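The following genes were chosen after their values were seen. Some were carried by few of the cells with hormone-sensing profile. Calcb, which encodes a neuropeptide of the calcitonin family, had 109 UMIs in 6 of the 48 Ctrl cells, 74.3% of them in 1 cell. Csn1s1, a milk casein, was detected in 9 Ctrl cells and 3 Fgfr2 KO cells, at 29.3 and 117 CPM, with 55.6% and 92.3% of its UMIs in 1 cell of each library. Upk3a, a plaque protein known from the bladder lining, was spread more widely, in 21 of 48 and 11 of 15 cells at 241 and 282 CPM. In mixed-keratin cells it lay at 5.46 CPM in Ctrl (14 UMIs) and 3.10 in Fgfr2 KO (1 UMI), and the log2 ratio in Ctrl was 5.47 (4.70 to 6.36, 95% counting interval).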
